A study of Mus musculus with 8 samples.

Results

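The 36 genes described here encode integrin subunits and the cytoplasmic proteins that gather around them in focal adhesions. They were taken by gene symbol from the 21879 genes of the deposited table, each symbol matched 1 row, and the rule uses no measured value. They comprise 10 integrin subunits, called receptors below, and 26 cytoplasmic proteins, called adaptors below, and the comparison sets the 2 classes side by side. The cells were TCMK-1, a transformed mouse kidney tubular epithelial line. One group of 4 libraries came from cells with a control shRNA (smgGDS control), and the other group of 4 from cells with an shRNA against smgGDS, a chaperone and exchange factor for small GTPases encoded by Rap1gds1. Every library of both groups came from cells treated with 20 µM cisplatin, a platinum drug that injures the kidney tubule, so any difference described is one of the knockdown under cisplatin, and the drug alone cannot be judged from it. Poly(A) RNA was sequenced, while the duration of treatment, and whether each line is 1 clone, is not stated in the sources used here. The labels leave unstated whether replicates are separate cultures, so p-values measure the spread between these libraries, which may be technical.

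Integrins are heterodimers of an alpha and a beta chain that bind matrix proteins outside the cell. Their short cytoplasmic tails carry no enzyme activity, so talin and kindlin bind the beta tail and activate the receptor, and vinculin, alpha-actinin, filamin and the ILK-PINCH-parvin complex tie it to actin filaments. Focal adhesion kinase, Src, paxillin and p130Cas form the signalling layer of the same structure. In kidney tubules these adhesions hold epithelial cells to the basement membrane.

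Library totals ran from 11560977 to 16059158 expected counts for the controls and from 12746051 to 14280962 for the knockdown, and 3 counts correspond to 0.181 to 0.257 CPM (counts relative to the scaled library total). Rap1gds1 was at 17.0, 15.6, 16.8 and 15.5 CPM in control replicates 1 to 4 and at 2.71, 2.36, 2.64 and 2.80 CPM in knockdown replicates 1 to 4 (log2 fold change -2.62 ± 0.13 SE, adjusted p = 2.72e-19 by edgeR), so all libraries matched their labels. Here and below a log2 fold change is knockdown minus control, and a gene is called when its Benjamini-Hochberg adjusted p over all 11576 tested genes is under 0.05. Knockdown replicate 4 stood apart, at 20.9 on the first principal component against 8.86 to 9.58 for the other knockdown libraries, and counts without it are given below. Control replicate 2 lay furthest out among the controls, at -16.5 against -12.2 to -8.86. This component held 29.2% of the variance. Among 12 kidney epithelial markers, 7 had enough counts to be tested. In controls the water channel Aqp1 was at 155 CPM, Krt19 at 10.1 CPM, Pax8 at 8.97 CPM and Krt8 at 2.75 CPM. Epcam, Krt18 and Lrp2 were tested at control means below that of Krt8. The epithelial cadherin Cdh1, at 0.148 CPM, lay under the level of 3 counts. Krt7, Cdh16, Pax2 and Slc34a1 were also too low to be tested. The label of an epithelial cell therefore rests on only part of these markers here, and not on Cdh1.

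In the knockdown, 15 adaptor genes rose, among them those for talin, kindlin-2, vinculin, ILK, PINCH1, alpha-actinin, filamin A and zyxin, while 6 of 8 tested integrin subunits did not pass. Of the 36 genes, 33 had enough counts to be tested, and 16 of them were higher and 1 lower in the knockdown. Over all 11576 tested genes, 11.1% were called higher and 9.15% lower (20.2% in either direction). Of 25 tested adaptors, 15 were higher and 0 lower by edgeR. DESeq2 and limma voom also called 0 adaptors lower, and 1 (Bcar1) was lower at an unadjusted p under 0.05. Of 8 tested receptors, 1 was higher (Itgb5) and 1 was lower (Itga6). The median log2 fold change was 0.25 over the adaptors, 0.035 over the receptors and -0.0033 over all tested genes, and under scaling by library total 0.20, -0.021 and -0.059. In 14 adaptors and in no receptor all 4 knockdown libraries lay above all 4 controls, an ordering that 11.5% of tested genes showed, and no member had all 4 below (9.61% of tested genes). The called adaptors rose by amounts between 0.20 and 0.87 on the log2 scale. In bulk RNA, fewer cells of a type and less RNA per cell cannot be told apart.

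**Figure D1:**
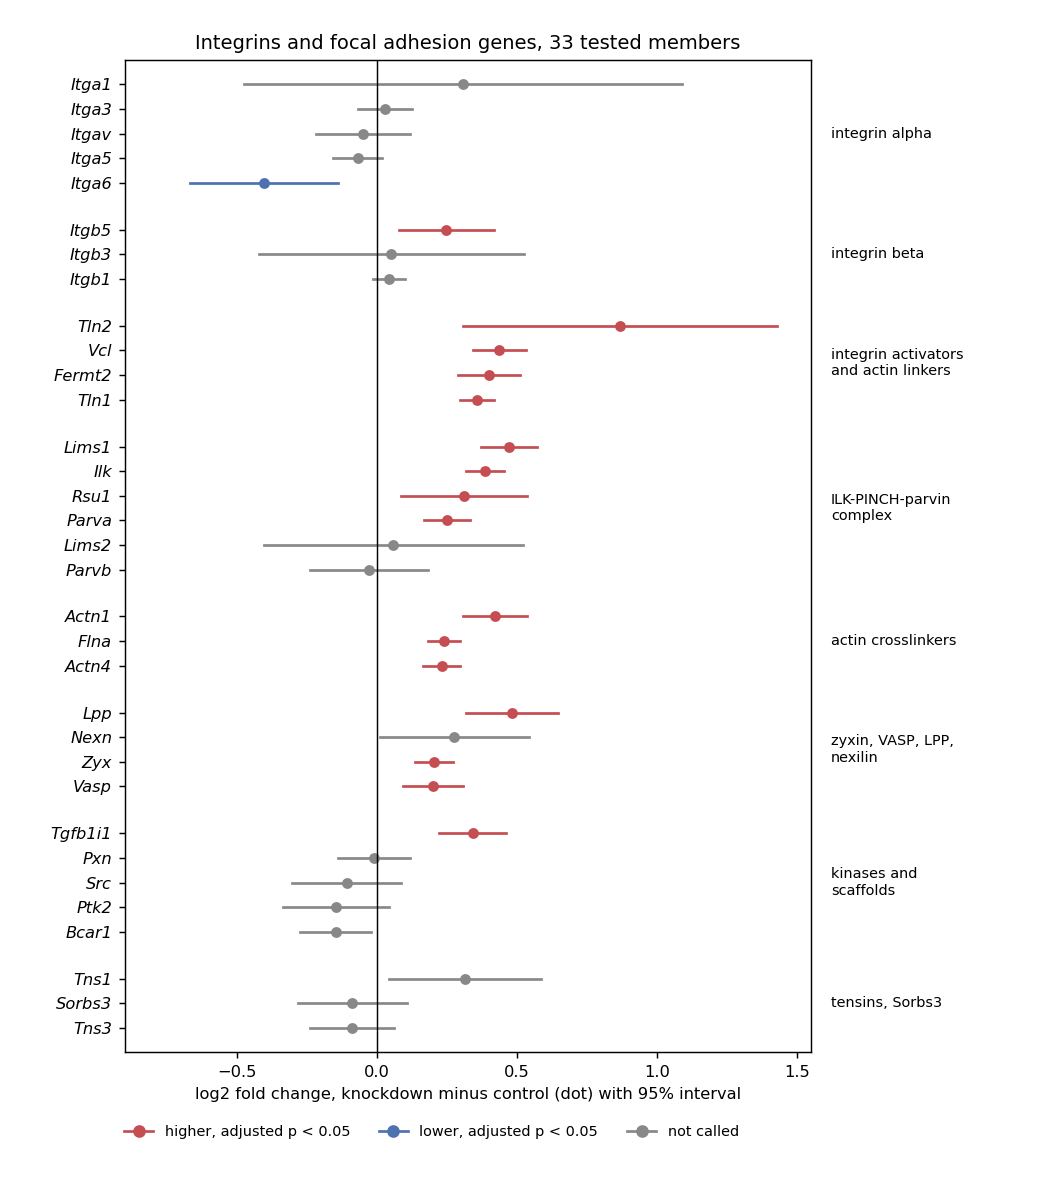
Log2 fold change (knockdown minus control) of the 33 tested genes on the horizontal axis, with 95% intervals as bars, grouped by role on the vertical axis and coloured by the edgeR call. The linkers, the ILK complex and the crosslinkers lie mostly to the right of 0, while Itgb1, Itga3 and Itga5 lie near it.

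Without knockdown replicate 4, 14 genes were higher and 0 lower, all 14 of them adaptors. Scaling by library total alone gave 14 higher and 3 lower among the members, and over all genes it gave 766 higher and 1951 lower in place of 1285 and 1059, as against 592 and 1481 on FPKM. The TMM factors behind the counts above were 1.01 to 1.03 in the controls and 0.974 to 0.987 in the knockdown, so they differed between the groups.

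Levels between genes were compared on the authors' FPKM, which are corrected for transcript length. In controls the most abundant member was Zyx (294 ± 10.6 FPKM, SD, n = 4), followed by Flna (244 ± 4.75 FPKM), Itgb1 (217 ± 6.21 FPKM) and Ilk (126 ± 3.00 FPKM). Itga5, Vcl and Actn1 shared a middle level, at 27.3 ± 1.79, 27.1 ± 1.20 and 28.4 ± 2.05 FPKM, and did not differ beyond their spread. At the low end Itga1, Tln2, Itgb8, Sorbs2 and Itga2 had control means under 0.2 FPKM. Itga2, Itgb8 and Sorbs2 were too low to be tested, with highest counts of 4, 6 and 15 in any library, so a difference in them was not detectable at this depth.

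**Figure D2:**
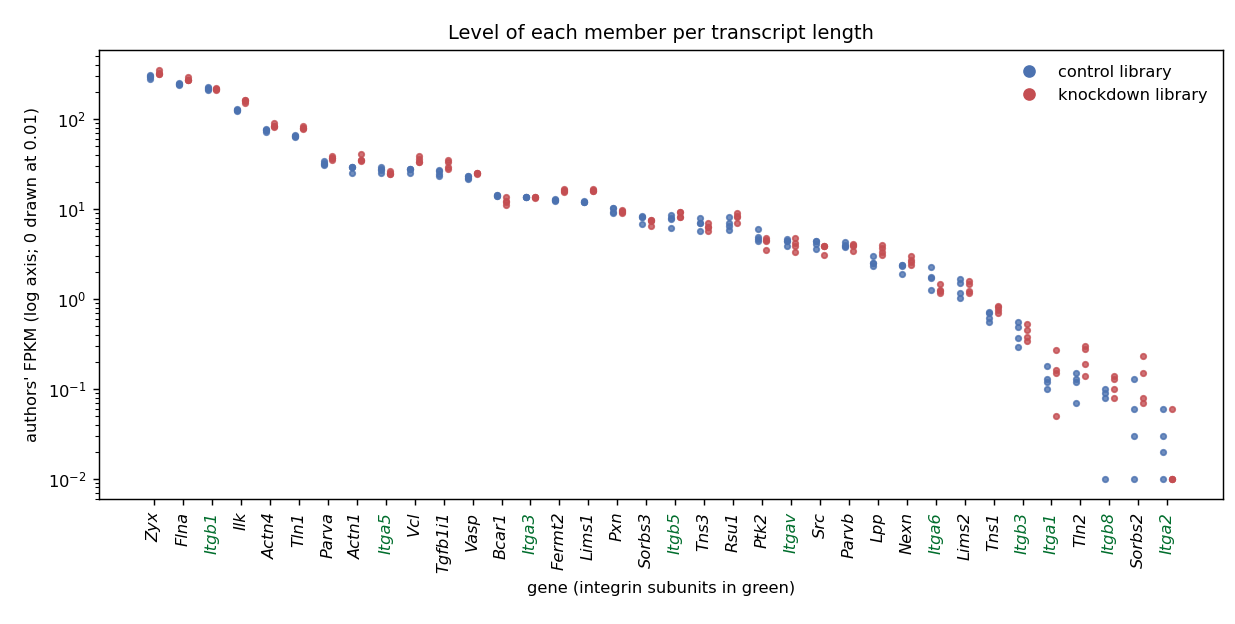
FPKM of each of the 36 genes (log axis) in the 4 control and 4 knockdown libraries, 1 point a library with 0 drawn at 0.01, ordered by control mean, with integrin subunits named in green. Zyx, Flna and Itgb1 lead, and Itga2 has the lowest control mean.

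Itgb1 (chromosome 8, 128685654 to 128733579 of GRCm38.p6), the beta chain shared by most integrins of epithelial cells, was at 898, 856, 886 and 933 CPM in control replicates 1 to 4 and at 907, 903, 926 and 944 CPM in knockdown replicates 1 to 4. The groups overlapped, and the gene did not pass (log2 fold change 0.042 ± 0.028 SE, adjusted p = 0.317 by edgeR), with a 95% interval of -0.015 to 0.099. In 7 of 8 libraries its count is not whole, so reads may be shared with a similar sequence, and its value is less certain. Itga5 (chromosome 15, 103344286 to 103366791), the alpha chain of the fibronectin receptor, was at 121, 125, 109 and 117 CPM in control replicates 1 to 4 and at 110.3, 118, 109 and 113 CPM in knockdown replicates 1 to 4. It overlapped between groups as well (log2 fold change -0.069 ± 0.043 SE, adjusted p = 0.279 by edgeR, interval -0.16 to 0.018), and it was called lower only under scaling by library total (-0.13). Itga3, a laminin-binding chain, and Itgav, the vitronectin receptor chain, had intervals of -0.069 to 0.12 and -0.22 to 0.12 around estimates of 0.028 and -0.050. The upper ends of all 4 intervals lie under the estimate for vinculin given below. Itgb3 and Itga1 were low, and their intervals of -0.42 to 0.52 and -0.48 to 1.09 are too wide for such a statement.

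Itga6, another laminin-binding chain, was at 10.0, 13.1, 10.1 and 7.53 CPM in control replicates 1 to 4 and at 8.85, 7.62, 7.53 and 7.11 CPM in knockdown replicates 1 to 4. Control replicate 2 was the highest library, and control replicate 4 lay among the knockdown libraries. The call of a fall (log2 fold change -0.40 ± 0.13 SE, adjusted p = 0.0243 by edgeR) was lost without control replicate 2 or without knockdown replicate 2, 3 or 4, with estimates of -0.26, -0.39, -0.39 and -0.36, and on FPKM (-0.32). Itgb5, a vitronectin receptor chain, was at 24.8, 19.7, 27.9 and 25.6 CPM in control replicates 1 to 4 and at 27.4, 26.9, 30.8 and 30.9 CPM in knockdown replicates 1 to 4. Its groups overlapped too, and its rise (log2 fold change 0.25 ± 0.084 SE, adjusted p = 0.0309 by edgeR) lost the call without control replicate 1 or 2 or knockdown replicate 3 or 4 (0.26, 0.15, 0.22 and 0.21), under scaling by library total (0.19) and on FPKM (0.18). Neither receptor call therefore held in every fit.

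Summed over the 6 alpha chains, FPKM were 47.1 ± 1.92 in controls and 43.9 ± 1.29 in the knockdown (SD, n = 4 each). Itga5 made up 57.9% ± 1.58 and 57.0% ± 0.995 of that sum, and Itga3 28.9% ± 1.22 and 30.6% ± 0.820. Itgb1 alone exceeded the summed alpha chains 4.62 ± 0.255 times in controls and 4.90 ± 0.155 times in the knockdown. Itgb1, Itga5 and Itga3 thus made up most of the messages of the member receptors in both groups. Alpha chains outside the members are not in these sums. Among them Itga7, Itga2b and Itga10 had control means of 3.97, 3.31 and 1.08 FPKM.

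All 4 integrin activators and actin linkers rose. Tln1 (chromosome 4, 43531513 to 43562583), the main talin, which binds beta tails and pulls on actin, was at 518, 508, 539.9 and 529 CPM in control replicates 1 to 4 and at 658, 665, 654 and 708 CPM in knockdown replicates 1 to 4. Every knockdown library lay above every control (log2 fold change 0.36 ± 0.030 SE, adjusted p = 3.77e-12 by edgeR). Fermt2 encodes kindlin-2, which binds the beta tail beside talin, lies on chromosome 14, 45458792 to 45530310, and was at 40.7, 40.0, 39.4 and 40.5 CPM in control replicates 1 to 4 and at 52.7, 54.7, 51.0 and 53.4 CPM in knockdown replicates 1 to 4. Its lowest knockdown library was above its highest control (log2 fold change 0.40 ± 0.055 SE, adjusted p = 5.24e-07 by edgeR). Vcl encodes vinculin, which strengthens the link from talin to actin, and lies on chromosome 14, 20929383 to 21033676 of GRCm38.p6. It was at 141, 129, 145 and 142 CPM in control replicates 1 to 4 and at 179, 192, 176 and 208 CPM in knockdown replicates 1 to 4 (log2 fold change 0.44 ± 0.046 SE, adjusted p = 6.71e-08 by edgeR), with knockdown replicate 4 the highest and no overlap between groups. Tln2, the minor talin, was at 1.35, 1.57, 1.19 and 0.856 CPM in the controls and 2.64, 1.41, 3.20 and 2.00 CPM in the knockdown (log2 fold change 0.87 ± 0.28 SE, adjusted p = 0.021 by edgeR). With few counts its groups overlapped, and the call was lost without control replicate 4 or knockdown replicate 1 or 3 (estimates 0.75, 0.80 and 0.68) and on the log2(FPKM + 0.5) scale (0.23).

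**Figure D3:**
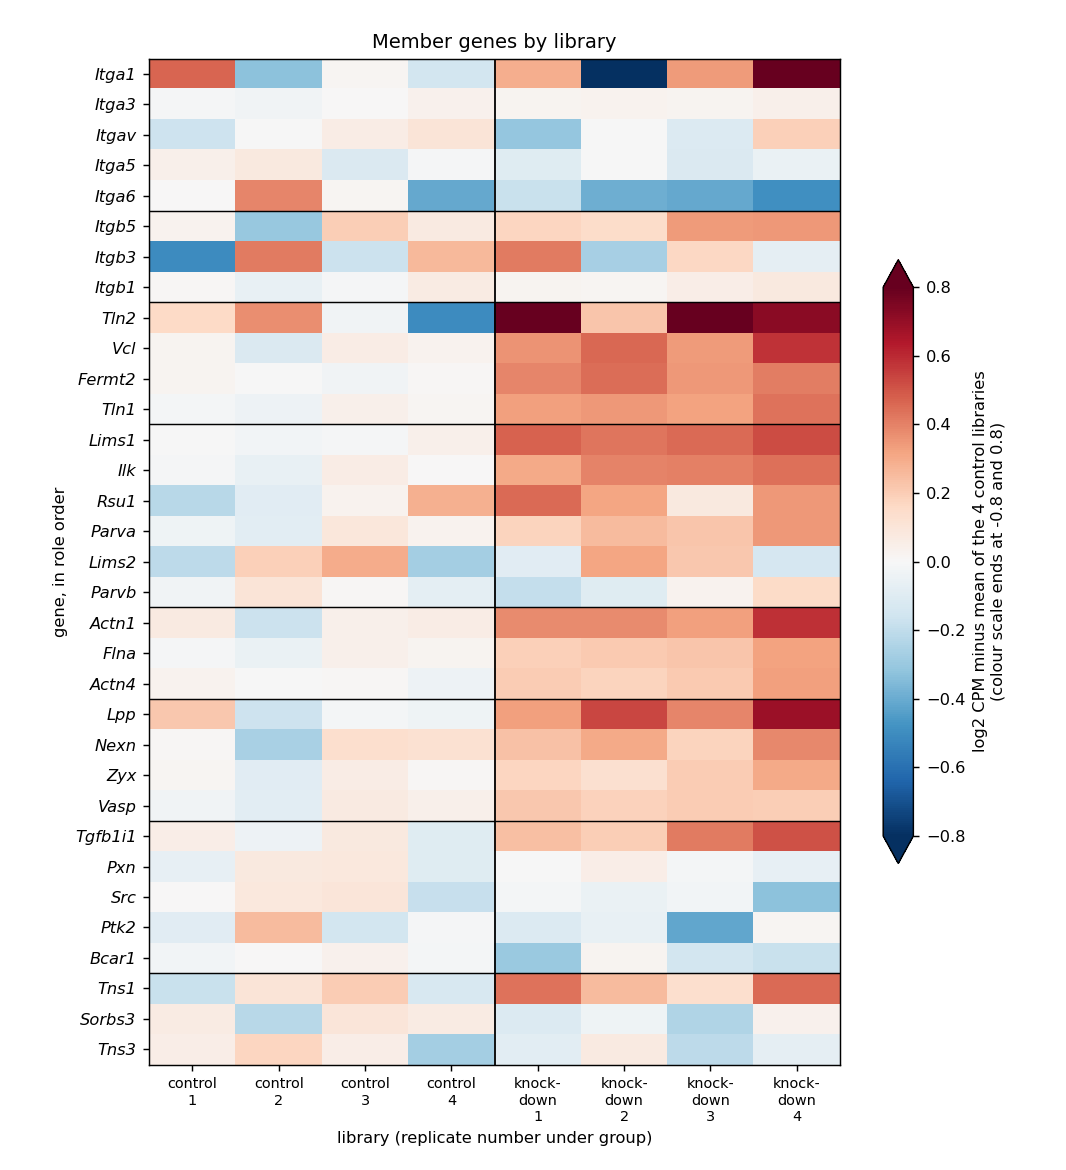
Log2 CPM of the 33 tested genes (rows, in role order) in each of the 8 libraries (columns), minus the mean of the 4 controls, as colour. Vcl, Fermt2, Tln1, Lims1, Ilk, Actn1 and Lpp are above the control mean in all 4 knockdown libraries, and knockdown replicate 4 is the darkest in several rows.

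Promoter sequences of RefSeq on GRCm38.p6, from 250 bases before to 50 after a start site, matched 26 of the 36 genes. They were searched for the CArG box, the DNA element that serum response factor is known to bind, and for GGAATG, an element that TEAD factors are known to bind, on both strands (CATTCC on the other). The 2 motifs share no bases in any match shown. A CArG box was found in 3 genes (Vcl, Fermt2 and Rsu1), which is 11.5% of those matched, against 1.81% of all 27025 genes with a promoter. All 3 were among the 13 matched genes called higher, but the call of Rsu1 did not hold in every fit. The box of Rsu1 starts at base 29 after the start site, not before it. How many of all genes with a box were called higher was not counted. None of the 8 matched receptors had a CArG box in this window. At 1.81% of all genes, a set of 8 would seldom hold one, so this says little about receptors. GGAATG was found in 5 genes (Actn4, Flna, Itgb1, Lpp and Vcl), or 19.2%, against 16.6% of all genes. These are matches of letters, not measured binding, and both motifs were chosen after the values were seen. The stretches below are shown because they hold the CArG boxes of Vcl and Fermt2, beside Itga5 as a receptor without either motif. Each reads 5′ to 3′ on the strand of its gene, with CArG boxes and GGAATG in capitals. Vcl covers chr14:20929148-20929377 (plus strand), with its box starting 227 bases before the start site. Fermt2 covers chr14:45530250-45530279 (minus strand), with its box starting 204 bases before the start site of the promoter table, 45530065. That site lies 245 bases inside the span of Fermt2 given above, so this box is within the gene and after its outermost start. Itga5 covers chr15:103366812-103367041 (minus strand).
Vcl: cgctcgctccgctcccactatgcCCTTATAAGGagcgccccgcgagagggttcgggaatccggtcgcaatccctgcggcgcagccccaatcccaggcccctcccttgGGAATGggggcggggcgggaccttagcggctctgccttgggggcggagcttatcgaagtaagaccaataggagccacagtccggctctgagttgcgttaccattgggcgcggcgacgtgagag
Fermt2: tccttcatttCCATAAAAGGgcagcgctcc
Itga5: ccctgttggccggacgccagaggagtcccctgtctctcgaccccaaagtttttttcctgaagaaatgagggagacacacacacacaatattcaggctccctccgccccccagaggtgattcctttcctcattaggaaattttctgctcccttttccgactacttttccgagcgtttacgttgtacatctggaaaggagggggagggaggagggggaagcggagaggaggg

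In the ILK-PINCH-parvin complex, which couples beta tails to actin, 4 of 6 genes rose and edgeR, DESeq2 and limma voom called 0 lower, with 0 lower at an unadjusted p under 0.05. Ilk (chromosome 7, 105736590 to 105742925), the pseudokinase at its centre, was at 219, 211, 229 and 220.4 CPM in control replicates 1 to 4 and at 271, 289.5, 289.9 and 298 CPM in knockdown replicates 1 to 4. The groups did not overlap (log2 fold change 0.39 ± 0.034 SE, adjusted p = 1.81e-11 by edgeR), and its counts are not whole in all 8 libraries, which makes it less certain. Lims1 encodes PINCH1, the LIM-domain partner of ILK, lies on chromosome 10, 58323342 to 58424691, and was at 51.1, 50.3, 50.7 and 52.5 CPM in control replicates 1 to 4 and at 70.8, 68.9, 70.1 and 73.6 CPM in knockdown replicates 1 to 4. It had the largest estimate of the 6 genes (log2 fold change 0.47 ± 0.050 SE, adjusted p = 1.96e-09 by edgeR), again without overlap. Parva, encoding alpha-parvin, the actin-binding subunit, was at 137, 132, 149 and 143 CPM in control replicates 1 to 4 and at 159, 167, 163 and 178 CPM in knockdown replicates 1 to 4 (log2 fold change 0.25 ± 0.040 SE, adjusted p = 8.99e-06 by edgeR). Rsu1, which binds PINCH1, was at 9.11, 9.95, 10.8 and 12.9 CPM in the controls and 14.6, 13.2, 11.2 and 13.5 CPM in the knockdown (log2 fold change 0.31 ± 0.11 SE, adjusted p = 0.0421 by edgeR). Its groups overlapped, and the call was lost without control replicate 1, 2 or 3 or knockdown replicate 1, 2 or 4, with leave-out estimates of 0.24 to 0.40, with DESeq2 (0.30), under scaling by library total (0.25) and on FPKM (0.23). The minor relatives Parvb and Lims2 did not pass, with intervals of -0.24 to 0.18 and -0.40 to 0.52.

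The 3 actin crosslinkers rose. Flna (chromosome X, 74223461 to 74249854), encoding filamin A, which crosslinks actin and binds beta tails, was at 1965, 1905, 2030.2 and 2012 CPM in control replicates 1 to 4 and at 2259, 2287, 2310.1 and 2477 CPM in knockdown replicates 1 to 4. It is the member with the most counts, and its groups did not overlap (log2 fold change 0.24 ± 0.028 SE, adjusted p = 2.21e-08 by edgeR). Actn1 (chromosome 12, 80167542 to 80260420), encoding alpha-actinin 1 of stress fibres and adhesions, was at 105, 89.0, 103 and 104 CPM in control replicates 1 to 4 and at 130.4, 130.3, 126 and 150.0 CPM in knockdown replicates 1 to 4. Control replicate 2 was the lowest and knockdown replicate 4 the highest, and the groups stayed apart (log2 fold change 0.42 ± 0.055 SE, adjusted p = 5.41e-06 by edgeR). Actn4, its widely expressed relative, also rose (log2 fold change 0.23 ± 0.033 SE, adjusted p = 9.33e-07 by edgeR), from 278 ± 5.70 to 327 ± 15.8 CPM (SD, n = 4 each), and 1 of its counts is not whole.

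Of the actin regulators around zyxin, 3 of 4 rose. Zyx, a LIM protein of adhesions and stress fibres, was at 679, 630.3, 698 and 675 CPM in control replicates 1 to 4 and at 753, 733, 772 and 827 CPM in knockdown replicates 1 to 4 (log2 fold change 0.20 ± 0.033 SE, adjusted p = 2.6e-05 by edgeR). Vasp, which promotes actin filament elongation and is bound by zyxin, was at 48.8, 46.9, 52.3 and 51.2 CPM in control replicates 1 to 4 and at 57.6, 56.5, 57.4 and 57.0 CPM in knockdown replicates 1 to 4 (log2 fold change 0.20 ± 0.053 SE, adjusted p = 0.00477 by edgeR). In both genes all knockdown libraries were above the controls. Lpp, a relative of zyxin, was at 45.1, 34.7, 38.4 and 37.9 CPM in control replicates 1 to 4 and at 48.8, 56.3, 51.0 and 62.4 CPM in knockdown replicates 1 to 4. It had the largest estimate of the 4 genes (log2 fold change 0.48 ± 0.079 SE, adjusted p = 0.000117 by edgeR), with knockdown replicate 4 the highest library. Nexn, encoding the actin-binding nexilin, was at 6.40, 5.31, 6.98 and 6.93 CPM in the controls and 7.49, 7.86, 7.21 and 8.31 CPM in the knockdown. Its groups did not overlap, but the test was not passed (log2 fold change 0.28 ± 0.13 SE, adjusted p = 0.137 by edgeR).

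In the signalling layer 1 of 5 genes was higher (Tgfb1i1), and edgeR, DESeq2 and limma voom called 0 lower, with 1 (Bcar1) lower at an unadjusted p under 0.05. Ptk2, encoding focal adhesion kinase, was at 20.0, 25.3, 19.2 and 21.1 CPM in control replicates 1 to 4 and at 19.8, 20.4, 15.9 and 21.5 CPM in knockdown replicates 1 to 4. The groups overlapped (log2 fold change -0.14 ± 0.093 SE, adjusted p = 0.299 by edgeR, interval -0.33 to 0.044). Pxn, encoding the scaffold paxillin, had nearly equal means of 35.97 ± 2.35 and 35.7 ± 1.22 CPM (SD, n = 4 each) and an interval of -0.14 to 0.12. Src, the tyrosine kinase that acts with focal adhesion kinase, had an interval of -0.30 to 0.086. Bcar1, encoding the Src substrate p130Cas, was at 42.3, 42.9, 44.0 and 42.4 CPM in control replicates 1 to 4 and at 34.96, 43.5, 38.8 and 38.0 CPM in knockdown replicates 1 to 4. Knockdown replicate 1 was the lowest library and replicate 2 lay among the controls, and the gene missed the threshold (log2 fold change -0.15 ± 0.062 SE, adjusted p = 0.0889 by edgeR). It was called lower without knockdown replicate 2 (-0.21) and under scaling by library total (-0.20). Tgfb1i1 was the only gene of this layer that rose. It encodes Hic-5, a relative of paxillin, and was at 54.0, 50.7, 55.1 and 48.8 CPM in control replicates 1 to 4 and at 61.6, 59.6, 69.4 and 74.2 CPM in knockdown replicates 1 to 4, without overlap (log2 fold change 0.34 ± 0.059 SE, adjusted p = 4.5e-05 by edgeR). Of the tensins and sorbin-homology adaptors, which bind beta tails or vinculin, edgeR called 0 of 3, with 1 at an unadjusted p under 0.05, and DESeq2 and limma voom also called 0. Their estimates were 0.32 ± 0.13 for Tns1, -0.089 ± 0.073 for Tns3 and -0.087 ± 0.096 for Sorbs3.

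Within each knockdown library, the adaptor median stood above the receptor median. For each library, the median over genes of log2 CPM minus the control mean was taken in each class. The receptor medians were -0.014 to 0.048 in the controls and -0.0031 to 0.060 in the knockdown and overlapped. The adaptor medians were -0.039 to 0.052 and 0.21 to 0.34, with knockdown replicate 4 the highest. The difference of the 2 medians, in which the scaling of a library nearly cancels, was -0.0084 ± 0.037 in controls and 0.22 ± 0.049 in the knockdown (SD, n = 4 each). These are descriptions, since the genes are not replicates and were chosen with earlier results known.

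**Figure D4:**
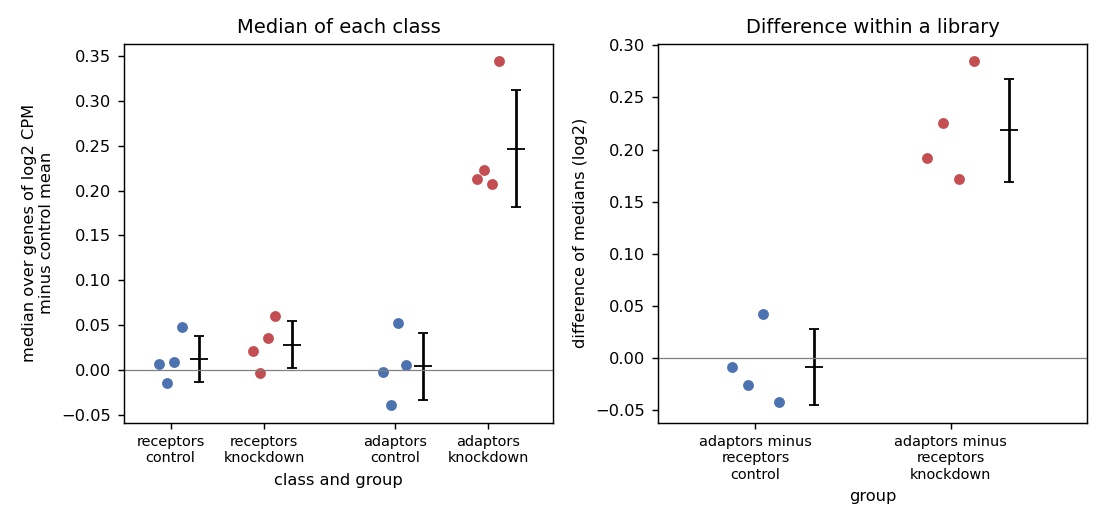
Left, the median over genes of log2 CPM minus the control mean in each library for 8 receptors and 25 adaptors; right, the adaptor median minus the receptor median. Points are libraries, and black marks are mean and SD of 4; the knockdown differences lie between 0.17 and 0.28.

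Ratios of single genes on FPKM, in which the scaling of a library cancels, were also taken. Tln1 per Itgb1 was 0.300 ± 0.00912 in controls and 0.373 ± 0.00931 in the knockdown. Vcl per Itgb1 was 0.125 ± 0.00486 in controls and 0.164 ± 0.0111 in the knockdown, and Ilk per Itgb1 was 0.581 ± 0.0205 in controls and 0.737 ± 0.0217 in the knockdown (SD, n = 4 each). In these ratios and in those of Fermt2 and Flna to Itgb1 the groups did not overlap, with log2 differences of 0.20 for Flna to 0.39 for Vcl. Itga5 per Itgb1 and Itga3 per Itgb1 overlapped, at log2 differences of -0.11 and -0.0034. Within the cytoplasm, Tln1 per Ptk2 went from 13.4 ± 1.92 to 18.9 ± 2.27 and Vcl per Pxn from 2.81 ± 0.246 to 3.80 ± 0.368, without overlap. These ratios were chosen after the values were seen and carry no test.

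Adaptor genes that come as close relatives could be compared pair by pair. Per length, Tln1 exceeded Tln2 in every library, as did Parva over Parvb, Lims1 over Lims2, Actn4 over Actn1 and Tns3 over Tns1. Over 5 log2 ratios of relatives, the groups did not overlap for Actn1 per Actn4 (difference 0.19, higher in 4 of 4 knockdown libraries than in any control) and for Tns1 per Tns3 (difference 0.40, likewise 4 of 4). Each reached p = 0.0286 in a two-sided exact permutation test, the smallest that 4 against 4 libraries allow, and neither passed after adjustment over the 5 ratios (adjusted p = 0.0714). The ratios of Parva to Parvb (0.24), Lims1 to Lims2 (0.39) and Tln1 to Tln2 (-0.64) overlapped between groups, with exact permutation p of 0.0571, 0.143 and 0.2. At this size, 3 of the 5 ratios would have had to separate fully for any to pass, so the adjusted test leaves undecided whether relatives differed.

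Other genes of the pathway were read from lists, beside the background of 11.1% higher and 9.15% lower. Of 16 other integrin subunits, 11 were too low to test, among them the leukocyte chains Itgal, Itgam and Itgb2. EdgeR, DESeq2 and limma voom called 0 of the other 5 (Itga7, Itga10, Itga2b, Itgb4 and Itgb7), with 0 at an unadjusted p under 0.05 by edgeR. Of 55 other focal adhesion proteins, 47 were tested, and 16 were higher and 4 lower, with a median of 0.045 that was -0.011 under scaling by library total and -0.011 on FPKM. Among those with the smallest adjusted p were Ppfibp1, a liprin of adhesion sites (0.54 ± 0.064), the PDZ-LIM protein gene Pdlim5 (0.57 ± 0.075), and the filamin gene Flnc (0.21 ± 0.028). Adjusted p for these 3 by edgeR lay between 2.19e-08 for Ppfibp1 and 5.24e-07 for Flnc. The 4 that fell were Crkl, an adaptor that binds p130Cas and paxillin (-0.29 ± 0.050), the paxillin-binding Git1 (-0.28 ± 0.053), Csk, the kinase that inhibits Src (-0.31 ± 0.082), and the hyaluronan receptor Layn (-0.85 ± 0.30). Layn was near 1.78 CPM with counts that are not whole, and its call was lost without control replicate 2, 3 or 4 or knockdown replicate 3 or 4, with leave-out estimates of -1.08 to -0.70. It was also lost on the log2(FPKM + 0.5) scale (-0.28), where the added 0.5 shrinks the estimate of so low a gene. Csk was not called without control replicate 2 (-0.23). The list held 2 lower genes without control replicate 2 and 7 under scaling by library total, and 13 were higher without knockdown replicate 4 and 10 on FPKM.

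In a list of integrin matrix ligands, 12 of 27 tested genes were higher and 0 lower by edgeR, with 2 lower at an unadjusted p under 0.05. Besides matrix proteins the list holds the cytokine gene Tgfb1 and also Ltbp1 and Lrrc32, which were not called. DESeq2 and limma voom also called 0 of the list lower. Those with the smallest adjusted p were Ctgf, a matricellular ligand (log2 fold change 0.32 ± 0.042 SE, adjusted p = 1.89e-07 by edgeR), and the fibrillar collagen genes Col3a1 (0.54 ± 0.079), Col1a2 (0.43 ± 0.068) and Col1a1 (0.23 ± 0.037). Fn1, encoding fibronectin, the ligand of the Itga5 receptor, rose as well (0.44 ± 0.076), as did the basement membrane collagen genes Col4a1 (0.55 ± 0.061) and Col4a2 (0.59 ± 0.067), while of the chains of laminins that Itga3 and Itga6 receptors bind, Lamb1 rose (0.12 ± 0.039) and Lamb2, Lama5 and Lamc1 did not pass (-0.021 ± 0.037, 0.087 ± 0.061 and 0.14 ± 0.067). Fn1, the Col4a genes and these laminins were chosen after their values were seen. The ligand list's median was 0.16, and 0.11 under scaling by library total, where 9 were higher and 1 lower. Without knockdown replicate 4, 11 ligands were higher and 1 was lower.

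**Figure D5:**
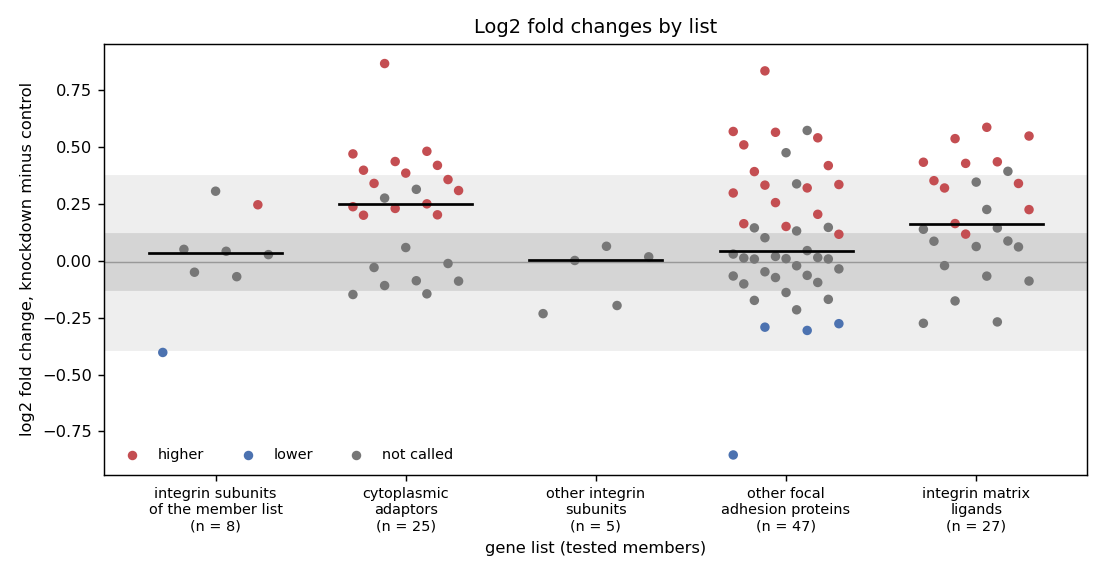
Log2 fold changes (knockdown minus control) of the tested genes of 5 lists, 1 point a gene (red called higher, blue lower, grey neither), with list medians as black lines; the grey bands hold the middle 50% and 90% of all tested genes. Adaptors and matrix ligands have medians of 0.25 and 0.16, and the receptors one of 0.035.

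Some markers of fibroblasts and pericytes were also higher. Of 8 such markers 5 were tested and 4 rose (Col1a1, Col3a1, Dcn and Pdgfrb), and the 8 summed to 299 to 326 CPM in the controls and 359.8 to 412 CPM in the knockdown, mostly from Col1a1. Cspg4 was tested and not called (0.37 ± 0.24). The 3 untested markers had means near or under the level of 3 counts, though Pdgfra reached 0.483 and 0.628 CPM in control replicates 2 and 3. Pdgfra had a control mean of 0.308 CPM and a knockdown mean of 0.0994 CPM, Lum 0.118 and 0 CPM, and Rgs5 0.128 and 0.0999 CPM. Dcn was not called when control replicate 2 or knockdown replicate 4 was left out (0.41 and 0.43), nor was Pdgfrb when replicate 3 of either group was left out (0.28 and 0.30) and on FPKM (0.23). The part of such markers in the rise of the adaptors was not tested. Summed kidney epithelial markers were 175 to 190.0 CPM in the controls and 151 to 159 CPM in the knockdown, mostly from Aqp1, which fell (-0.29 ± 0.039). Aqp1 was the only 1 of the 7 tested epithelial markers that was called. Over these 7, the estimate was positive in 3 and negative in 4, so the lower sum reflects Aqp1 and not the list. The 8 leukocyte markers summed to 129.7 to 139 and 111 to 122 CPM, almost all from Cd14 and Cd68, with Adgre1 and Cd3e at 0 in all libraries. Cd14 was called lower (-0.36 ± 0.057) and Cd68 was not called, and the other 6 were too low to be tested. The 6 endothelial markers summed to 7.61 to 9.58 and 11.9 to 13.8 CPM, mostly from Flt1. Flt1 was called higher (0.60 ± 0.11), and the other 5 were too low to be tested.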

How the data were processed

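Poly(A) RNA of 4 control and 4 knockdown libraries was analysed from 1 deposited table, which holds expected counts per gene (not all whole) and the authors' FPKM, per the file headers. Per the submitters' processing notes, which give no roles, the tools were RSEM, StringTie 1.3.1, HISAT2 2.4, Bowtie2 2.2.8, fastp 0.18.0, edgeR and DESeq2, and the build was GRCm38.p6. Strand handling, like the annotation, was not given in the sources used here. A gene's reads and those of an overlapping or antisense partner therefore cannot be told apart.

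The deposited expected counts were rounded, and the test was that of edgeR 4.0.16 under R 4.3.3 (TMM scaling, default expression filter, robust quasi-likelihood F-test, two-sided, no covariates), adjusted over 11576 genes. Intervals cover 95% and rest on the spread between libraries. CPM use TMM factors. Coordinates and promoters are from RefSeq, GRCm38.p6. The procedure was tested on simulated data. Pairs of replicates differed by more than sampling noise (chi-square per degree of freedom 1.94 to 3.94). Alternatives were RLE factors, scaling by library total, DESeq2 1.42.0, limma 3.58.1 voom, limma on log2(FPKM + 0.5), other filters, a replicate block, leaving out each library, and the threshold 0.01. A length and GC correction by transcript was added after seeing the data.

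The members, lists, tests and alternatives were chosen with earlier results of these data known. All 36 members are named; of the other pathway lists, up to 4 higher and 4 lower called genes with the smallest adjusted p. A gene meeting this rule is not reported here.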

Additional observations from a re-analysis of the deposited data

Results flagged for a closer look

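In groups of 4 libraries, a library was looked for whose gap to its nearest neighbour took up more of the group's range than Dixon's 95% critical value allows. Of 98 groups (each tested member and each other named gene, in controls and in the knockdown), 4 held such a library, where chance flags about 1 in 20 groups. Actn1 was at 89.0 CPM in control replicate 2, against 103 to 105 CPM in the other controls. Sorbs3 was at 13.3 CPM in control replicate 2, against 16.2 to 16.6 CPM in the others. Src was at 12.5 CPM in knockdown replicate 4, against 15.1 to 15.5 CPM in the other knockdown libraries. Dcn was at 6.79 CPM in knockdown replicate 4, against 5.78 to 5.85 CPM. Without control replicate 2 the estimate of Actn1 was 0.37 in place of 0.42, and it stayed called.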

How the results depend on the processing

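Of the 16 genes called higher, 13 kept the call in every alternative that gave them a value (Tln1, Fermt2, Vcl, Ilk, Parva, Lims1, Tgfb1i1, Actn1, Actn4, Flna, Zyx, Vasp and Lpp), and Tln2, Rsu1 and Itgb5 did not. DESeq2 gave no adjusted p for Itga1, Itgb3, Tln2 and Lims2. Over all genes, 1405 were called at a threshold of 0.01 (825 higher and 580 lower), 766 were higher and 1951 lower under scaling by library total, and 592 were higher and 1481 lower on FPKM. The median of all genes moved to -0.059 and -0.051 under these 2 scalings. Under scaling by library total, 3 members were lower (2 receptors and 1 adaptor) and 0 receptors higher, with medians of 0.17 for all members, -0.021 for receptors and 0.20 for adaptors. On FPKM, 0 members were lower, 0 receptors were called in either direction, and these medians were 0.15, -0.014 and 0.18. At a threshold of 0.01, 0 members were lower and 0 receptors were called. With a mean of at least 5 CPM the receptor median was -0.012, over 6 receptors instead of 8. Leaving out each library in turn gave 14 to 15 members higher and 0 to 1 lower, 0 to 1 receptors higher and 0 to 1 lower, 13 to 14 adaptors higher and 0 to 1 lower (Bcar1, without knockdown replicate 2). Medians were then -0.025 to 0.051 for receptors and 0.22 to 0.28 for adaptors. Estimates that turned sign all belonged to genes that were not called: Itga3 (-0.028), Itgb1 (-0.013) and Itgb3 (-0.0059) under scaling by library total, Itga3 (-0.016) and Itgb1 (-0.013) on FPKM, and Parvb (0.0067) and Pxn (0.032) after the length and GC correction. With a library left out, others spanned 0: Itga1 (-0.079 to 0.59), Itgav (-0.14 to 0.031), Itgb3 (-0.10 to 0.22), Parvb (-0.091 to 0.024), Lims2 (-0.024 to 0.16) and Pxn (-0.039 to 0.017). The cause of these shifts was not tested. The labels give same-numbered libraries of the 2 groups only a shared number. Correlations of their deviations from the group means were 0.056, 0.083, -0.036 and 0.056 for numbers 1 to 4. Those of numbers 1, 2 and 4 lay above every correlation between unlike numbers, and that of number 3 did not. The highest between unlike numbers was 0.038 (control replicate 3 with knockdown replicate 4). Whether a number marks a shared batch was not tested. With the number as a replicate block, 2660 genes were called in place of 2344, and 16 members were higher and 1 lower, as without it. Depth limits what can be said of Itga1, Itgb3, Tln2 and Lims2, at means of 0.775 to 2.50 CPM.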
